A study of Mus musculus with 12 samples.

Results

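The genes described are those of the platinum uptake channels and the copper transporters, which can move platinum drugs or copper across membranes. They were chosen by name and are 9 of the 53801 genes in the deposited table: the 5 LRRC8 genes Lrrc8a, Lrrc8b, Lrrc8c, Lrrc8d and Lrrc8e, the copper transporters Slc31a1 and Slc31a2, and the copper pumps Atp7a and Atp7b. Of these, 8 had a mean of at least 1 in FPKM, fragments per kilobase of transcript scaled to a total for each library, over the libraries and were tested. Atp7b lay under that limit.

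Tumours were grown in female C57BL/6 mice, 6 to 8 weeks old, from Lewis lung carcinoma (LLC) cells, a mouse lung cancer line, placed with Matrigel in each flank. The 4 groups of 6 mice were given vehicle, cisplatin, brivanib or both drugs into the peritoneum, 100 µL a time and 2 times a week over 4 weeks, after total tumour volume had passed 100 mm3. Cisplatin is a platinum drug that cross-links DNA, and brivanib inhibits the kinases of VEGF and FGF receptors. RNA of whole tumours was sequenced, with 3 libraries per group and 12 in all; no source used here gives the doses. Every group, vehicle included, carried LLC cells and Matrigel in the same strain of host, so tumour and host RNA are mixed in each library. The labels do not say whether the 3 libraries of a group came from separate mice, and p-values therefore measure only the spread between these samples.

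As background, LRRC8 proteins form the volume-regulated anion channel, which opens when a cell swells and lets out chloride and organic osmolytes. LRRC8A is needed in every such channel, and its partners LRRC8B to LRRC8E set which solutes pass. Channels with LRRC8D let larger and uncharged solutes through, and in human cell lines the loss of LRRC8A or LRRC8D lowers the uptake of cisplatin. Channels with LRRC8C or LRRC8E can pass cGAMP, the messenger made by the DNA sensor cGAS that the series title names. SLC31A1 (CTR1) is the copper importer of the cell surface and has been proposed to take up cisplatin, SLC31A2 (CTR2) is a related protein of internal membranes, and ATP7A and ATP7B pump copper out of the cytosol and have been tied to cisplatin resistance in human tumour cells.

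Libraries held 17.2 to 30.9 M fragments (M, 1e6), recovered from the deposited values. Brivanib library 5 stood apart: ribosomal features took 37.7% of its fragments, against 0.268% to 0.656% in the others, and the others held at most 22.8 M. Markers of other tissues also varied. The summed FPKM of 12 skeletal muscle markers was 1.63 to 2.29 in vehicle, 0.974 to 27.2 in cisplatin, 1.45 to 339.1 in brivanib and 0.854 to 59.7 in the combination. That of 10 adipocyte markers, 7 of which had a mean of at least 1 FPKM, was 11.2 to 11.8 in vehicle, 6.00 to 62.5 in cisplatin, 40.6 to 286.0 in brivanib and 89.4 to 310.3 in the combination, so brivanib and combination libraries were all above vehicle. Of 12 lung epithelium markers only Napsa and Cdh1 reached a mean of 1 FPKM, and Nkx2-1, Sftpc, Sftpa1 and Krt18 were listed at 0 in every library. In bulk tumour RNA, fewer cells of a type and less RNA per cell cannot be told apart.

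The promoter windows of Lrrc8d and Lrrc8b are shown because these were the members that passed the test in a comparison. Each covers 250 bases before to 50 bases after a start annotated by RefSeq on GRCm38.p6, on the plus strand, with GC boxes (GGGCGG on either strand) in capitals. Lrrc8d has windows at a pair of starts, chr5:105699719-105700018 and chr5:105700560-105700859, and only the first is the start of the transcript that carried the Lrrc8d difference described further on. The Lrrc8b window is chr5:105415525-105415824.
Lrrc8d, first start: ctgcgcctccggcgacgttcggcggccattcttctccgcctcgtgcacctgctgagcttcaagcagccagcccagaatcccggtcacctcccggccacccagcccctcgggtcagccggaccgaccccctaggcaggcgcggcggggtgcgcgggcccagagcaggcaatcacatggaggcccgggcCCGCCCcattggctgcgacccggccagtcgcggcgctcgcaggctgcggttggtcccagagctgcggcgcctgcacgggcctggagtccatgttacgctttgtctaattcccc
Lrrc8d, second start: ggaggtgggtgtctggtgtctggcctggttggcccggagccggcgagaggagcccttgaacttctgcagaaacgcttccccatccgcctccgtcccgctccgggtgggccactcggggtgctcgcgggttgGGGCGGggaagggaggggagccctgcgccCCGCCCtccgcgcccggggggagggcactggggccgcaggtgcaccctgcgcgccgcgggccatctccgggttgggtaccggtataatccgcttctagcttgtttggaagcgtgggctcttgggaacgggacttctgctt
Lrrc8b: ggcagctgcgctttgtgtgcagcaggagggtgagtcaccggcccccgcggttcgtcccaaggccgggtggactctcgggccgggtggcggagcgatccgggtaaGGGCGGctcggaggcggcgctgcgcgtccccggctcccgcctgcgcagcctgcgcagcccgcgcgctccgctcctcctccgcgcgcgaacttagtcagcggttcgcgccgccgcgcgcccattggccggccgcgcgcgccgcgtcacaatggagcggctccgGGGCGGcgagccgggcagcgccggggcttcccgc
The first Lrrc8d window is 71.3% G and C with 31 CpG dinucleotides, and the Lrrc8b window is 78.0% with 51, against a median of 52.7% and 7 over 32851 mouse promoter windows of 300 bases. GC boxes numbered 1 and 2 in the Lrrc8d windows, 2 in that of Lrrc8b and 4 in that of Lrrc8a, and 35.7% of all windows held at least 1. The core of a metal response element (TGCACNC or TGCGCNC on either strand) occurred 3 times in the second Lrrc8d window, 2 times in that of Atp7a and 1 time each in those of Lrrc8b, Slc31a2 and Atp7b; 25.7% of all windows held it. The first Lrrc8d window held none of these cores, and a match is a description of letters only.

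Ranked by mean FPKM over the 12 libraries, Slc31a1 came first at 17.98, followed by Lrrc8c at 12.5, Lrrc8a at 11.3, Lrrc8b at 10.1, Lrrc8d at 9.59, Slc31a2 at 7.89, Atp7a at 5.34 and Lrrc8e at 3.62. Atp7b, the copper pump of liver, was close to absent. It was listed at 0 in every cisplatin and combination library and in vehicle 2, and rested on at most 6 fragments in any library. No fold change is given for it. Lrrc8d had the widest spread of the tested members, from 2.61 to 23.4 FPKM, whereas Slc31a1 ran only from 15.8 to 21.1.

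**Figure D1:**
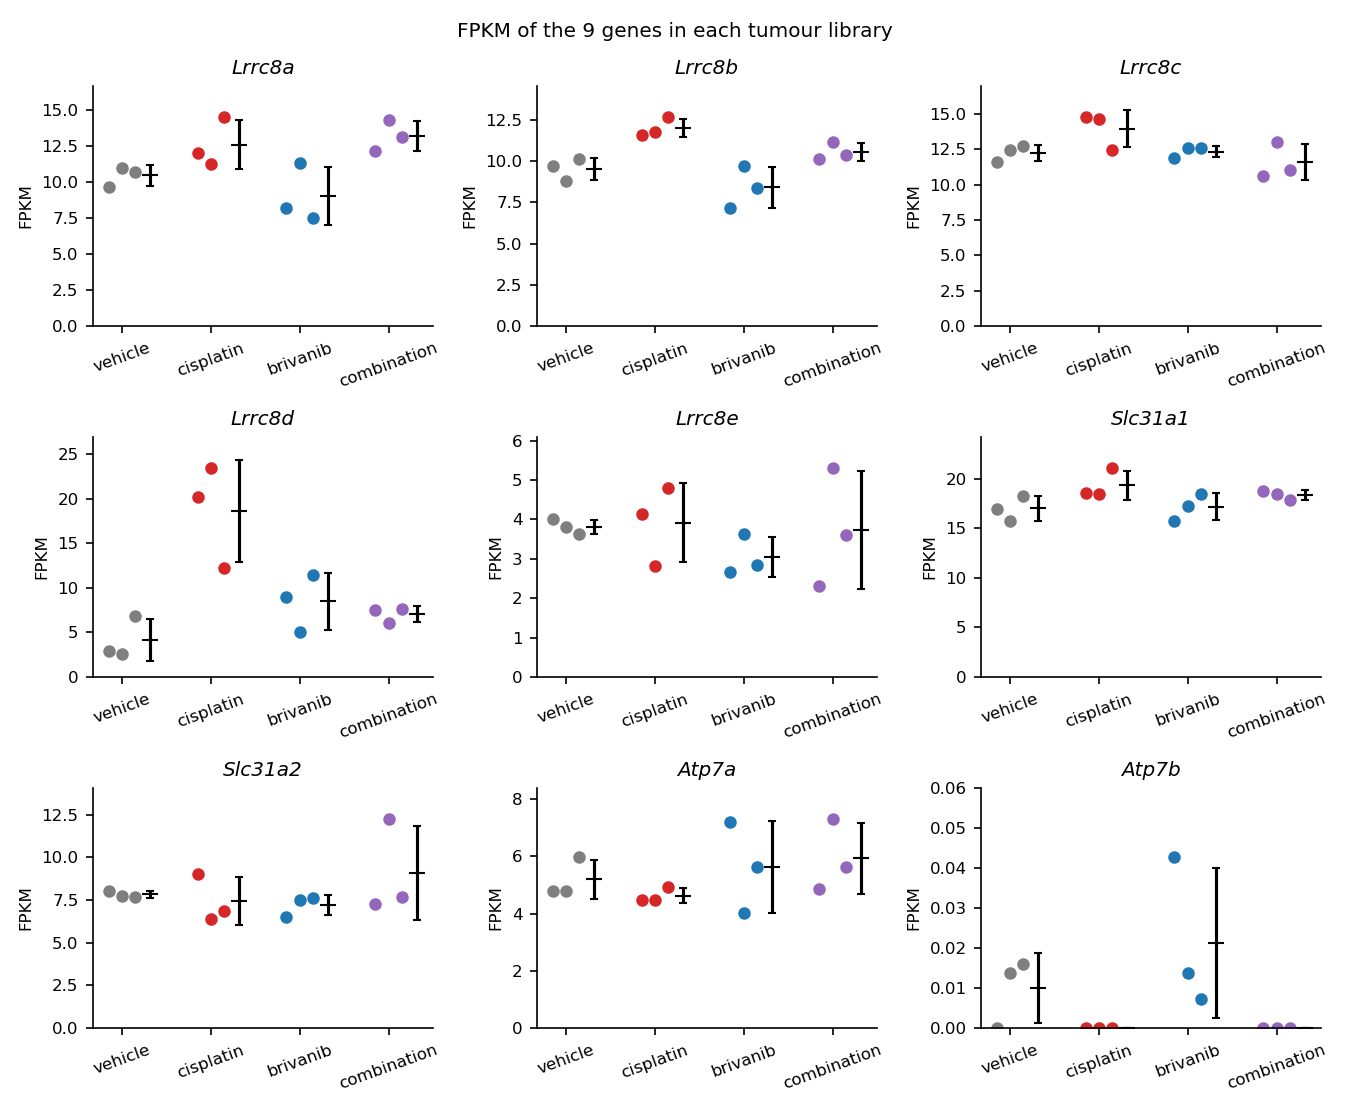
FPKM of each of the 9 genes (vertical axis, from 0) in the 12 libraries by treatment group; points are libraries and the black bars are the group mean and SD (n = 3). The 3 cisplatin libraries of Lrrc8d lie at 12.3 to 23.4 FPKM, above every other library of that gene, while the Atp7b panel reaches only 0.0427 FPKM.

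Lrrc8d, the subunit of the channel known for carrying platinum drugs, was the member that differed most. Its level was 2.96, 2.61 and 6.86 FPKM in vehicle 2, 3 and 5, and 20.2, 23.4 and 12.3 FPKM in cisplatin 1, 2 and 3. It was 8.94, 5.09 and 11.4 FPKM in brivanib 2, 3 and 5, and 7.56, 6.07 and 7.63 FPKM in combination 2, 3 and 4. All 3 cisplatin libraries were above the 9 others, as for 1.03% of all tested genes; cisplatin lay wholly above vehicle for 17% of them. The order of group means was cisplatin at 18.6 ± 5.75, brivanib at 8.49 ± 3.20, the combination at 7.09 ± 0.879 and vehicle at 4.14 ± 2.36 FPKM (SD, n = 3). Brivanib and the combination overlapped, and so did the combination and vehicle.

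In cisplatin against vehicle, Lrrc8d rose by a log2 fold change of 1.98 ± 0.33 (SE) on the scale of log2(FPKM + 1), with an adjusted p of 0.0459 in limma. It was the only 1 of the 8 tested members called in that comparison, in which 0.19% of the 14246 genes tested were called and 0.119% were called higher. The adjusted p lay close to the threshold of 0.05. In 27 alternative settings that kept all transcripts, the fold change was at least 1.77. The call was lost in 21 of them, with adjusted p from 0.0507 to 0.209. Leaving out any single library other than brivanib 2 or brivanib 3 was among these, and without brivanib 5 the adjusted p was 0.0532 at the same 1.98. Erythroid markers moved with this contrast (5 of 5 had a mean of at least 1 FPKM). Their summed FPKM was 1607 to 3085 in vehicle, 4.44 to 99.6 in cisplatin, 448.7 to 2939 in brivanib and 4.54 to 16.5 in the combination. Their part in the result was not tested.

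With brivanib alone Lrrc8d was 0.92 ± 0.33 above vehicle on the log2 scale, and with the combination 0.74 ± 0.33 above it; neither passed the test (limma adjusted p = 0.274 and 0.255). Without brivanib 5, the first of these values was 0.69 ± 0.35 (adjusted p = 0.561). Relative to cisplatin alone the combination stood at -1.24 ± 0.33 without overlap of the groups, as 7.44% of genes were lower without overlap, and the adjusted p was 0.657. No gene at all was called in that comparison by limma on FPKM, with 960 genes at an unadjusted p under 0.05, and 2 were called by limma's voom on recovered fragments. The interaction, the brivanib effect with cisplatin minus that without it, was -2.16 ± 0.47 for Lrrc8d (limma adjusted p = 0.109), where 0.14% of genes were called. The comparisons share libraries, so these values are not independent of each other.

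The gene level of Lrrc8d hides a difference between its transcripts. The table holds 10 of them. Only ENSMUST00000060531 (chromosome 5, exons from 105699969 to 105815215, 3923 bases) and ENSMUST00000120847 carry the whole coding sequence of 2577 bases, which lies entirely in the last exon at 105811726 to 105814302. The second of these starts 820 bases downstream and averaged 0.009 FPKM. The other transcripts that reached 0.3 FPKM are short models of 366 to 593 bases, which join a middle exon to the first bases of the coding sequence.

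**Figure D2:**
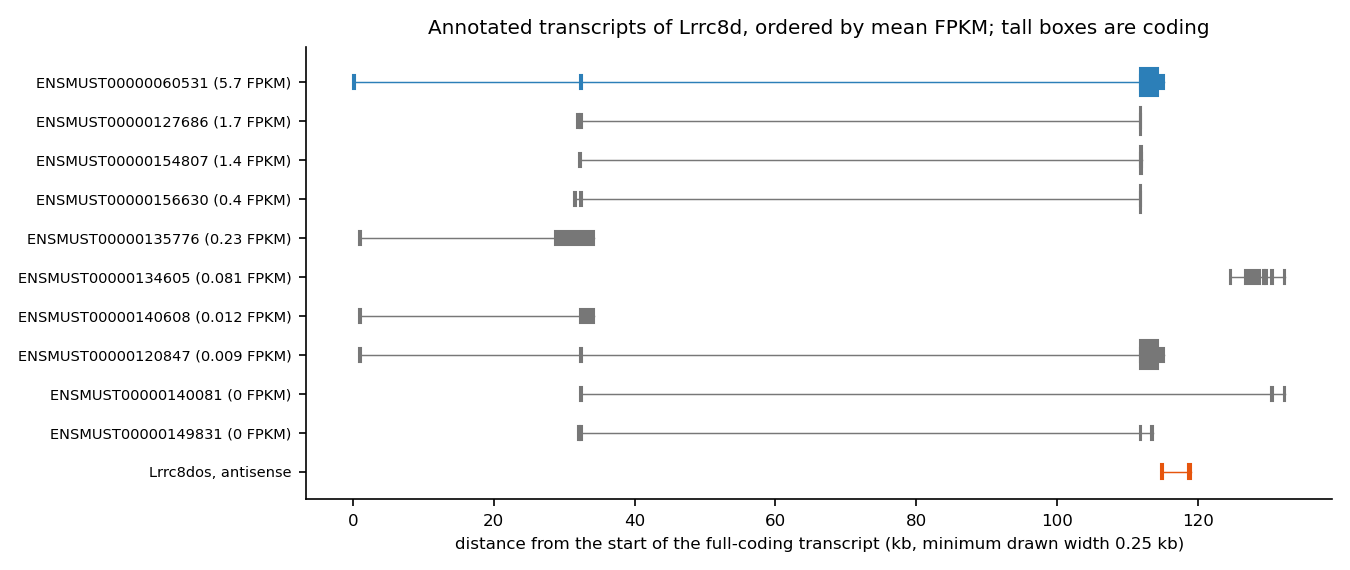
Exons of the 10 Lrrc8d transcripts and of the antisense gene Lrrc8dos, by distance in kb from the start of ENSMUST00000060531 (blue), in order of mean FPKM; tall boxes are coding sequence. The full coding sequence of 2577 bases sits in the last exon, and the 3 short models below the first line hold only its first bases.

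ENSMUST00000060531, the full-coding transcript, was at 0.401, 1.72 and 0.186 FPKM in vehicle 2, 3 and 5, from 37, 150 and 14 fragments. In cisplatin 1, 2 and 3 it was at 16.7, 16.6 and 10.4 FPKM, from 1402, 1520 and 835 fragments. In brivanib 2, 3 and 5 it was at 7.34, 2.45 and 9.11 FPKM, from 622, 215 and 751 fragments. In combination 2, 3 and 4 it was at 0.292, 0.366 and 3.48 FPKM, from 25, 33 and 246 fragments. Vehicle and combination libraries were low, apart from a middling combination 4, brivanib was intermediate and cisplatin was high. All 3 brivanib libraries were above all 3 vehicle libraries, as for 6.33% of tested transcripts, and cisplatin lay above every other library, as for 0.888% of them.

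The 9 other Lrrc8d transcripts together held 48 to 108 fragments in every library. As these models are short, the same few fragments weigh heavily in FPKM: they made up 6.67 of the 6.86 FPKM in vehicle 5 and 7.27 of the 7.56 FPKM in combination 2. The full-coding transcript thus gave 3.87%, 6.03% and 45.7% of the gene's FPKM in the combination libraries, against 70.9% to 84.7% in cisplatin and 48.1% to 82.1% in brivanib. In vehicle 2, 3 and 5 it gave 13.6%, 66.1% and 2.71%, so the share in vehicle spanned most of the range of the other groups. How fragments were divided between overlapping transcripts is an estimate of RSEM, and the split is uncertain.

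**Figure D3:**
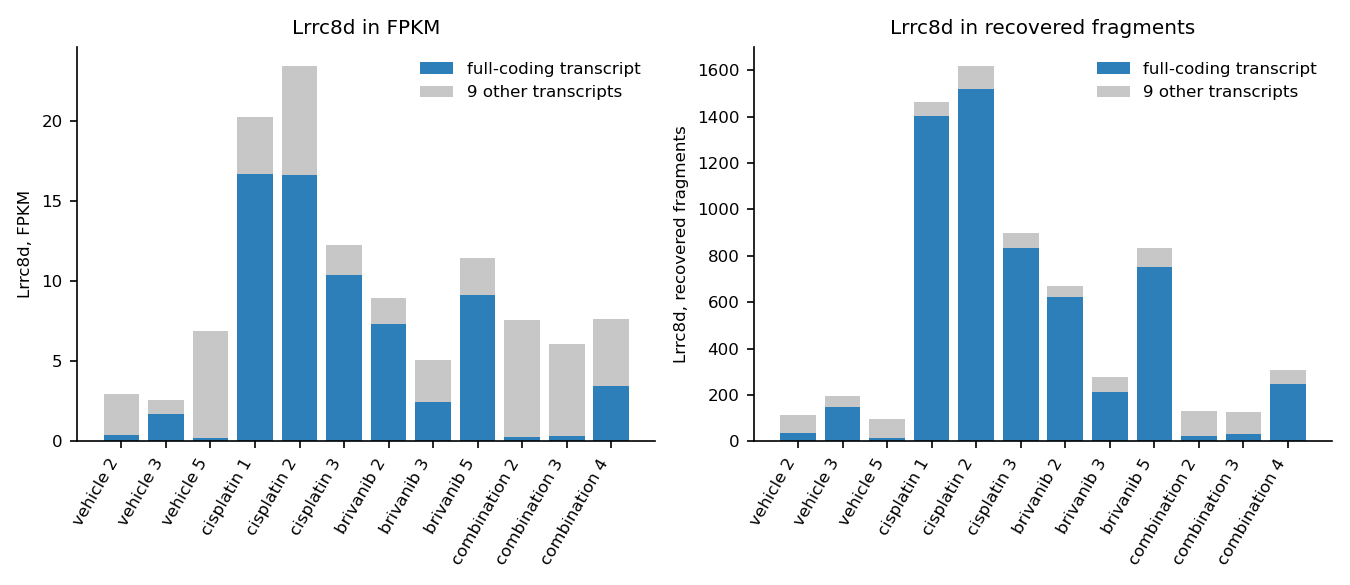
Lrrc8d in each library as FPKM (left) and as recovered fragments (right), with the full-coding transcript ENSMUST00000060531 in blue and the 9 other transcripts in grey. In fragments, cisplatin libraries reach 898 to 1619 and combination libraries 127 to 308, whereas the grey part stays at 48 to 108 throughout.

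Tested alone among 28610 transcripts, ENSMUST00000060531 had a log2 fold change of 3.20 ± 0.56 in cisplatin against vehicle (limma adjusted p = 0.108). It was 2.002 ± 0.56 in brivanib against vehicle (adjusted p = 0.288), 0.27 ± 0.56 in the combination against vehicle (adjusted p = 0.883) and -2.94 ± 0.56 in the combination against cisplatin (adjusted p = 0.335). Its interaction was -4.94 ± 0.78 (limma adjusted p = 0.0888), and it passed the threshold without brivanib 3 (adjusted p = 0.0461) or without combination 4 (adjusted p = 0.0264). None of these was called with all libraries. Of all transcripts, 0.0245%, 0.353%, 0.182% and 0.0524% were called in the 4 comparisons in that order, and 0.0524% in the interaction. With this transcript left out of the gene sum, an alternative added after the data had been seen, Lrrc8d was 0.33 ± 0.46 above vehicle with cisplatin (adjusted p = 0.788).

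Counted in fragments, where short models weigh little, the Lrrc8d gene held 115, 198 and 96 in vehicle, 1463, 1619 and 898 in cisplatin, 670, 277 and 833 in brivanib, and 133, 127 and 308 in the combination. All brivanib libraries were above all vehicle libraries and all combination libraries were below all cisplatin libraries, also after division by the library totals, where 3.31% and 6.7% of tested genes did the same. Limma's voom on these fragments gave 3.21 ± 0.43 for cisplatin against vehicle (adjusted p = 0.00613, with 0.0562% of genes called), -2.85 ± 0.41 for the combination against cisplatin (adjusted p = 0.0353, with 0.014% called) and -4.62 ± 0.60 for the interaction (adjusted p = 0.0142, with 0.0351% called). With ribosomal features left out of the library totals and of the genes tested, an alternative added after the data had been seen, the values were 3.21, -2.87 and -4.84 and none passed (adjusted p = 0.056, 0.603 and 0.0945). In the voom fit with all features, Lrrc8d was 1.77 ± 0.44 in brivanib against vehicle (limma adjusted p = 0.0676). It was -1.41 ± 0.425 in the combination against brivanib (limma adjusted p = 0.0756), and neither passed. Both scales thus put Lrrc8d highest in cisplatin and lower in the combination, and the calls turned on the processing.

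Lrrc8dos, an antisense gene at chromosome 5, 105814773 to 105818988, shares 218 bases with the last exon of Lrrc8d. No strand setting is stated, so reads from the shared bases cannot be told apart. Lrrc8dos was at 1.77 ± 0.388 FPKM in vehicle, 3.31 ± 0.699 in cisplatin, 1.70 ± 0.301 in brivanib and 2.46 ± 0.254 in the combination (SD, n = 3). Like the full-coding Lrrc8d transcript, Lrrc8dos was highest in cisplatin. Every library with cisplatin was above every library without it (2.28 to 4.09 against 1.38 to 2.15 FPKM), as for 3.45% of tested genes. Lrrc8dos was intermediate in the combination, where the full-coding Lrrc8d transcript was low, and low in brivanib, where that transcript was intermediate. The part of shared reads in either gene was not tested.

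Lrrc8a (chromosome 2, 30237715 to 30263790), the subunit every channel needs, was at 9.65, 11.0 and 10.7 FPKM in vehicle and 12.0, 11.2 and 14.5 FPKM in cisplatin. It was at 8.19, 11.3 and 7.53 FPKM in brivanib and 12.2, 14.3 and 13.1 FPKM in the combination. Libraries with cisplatin were at 11.2 to 14.5 and those without at 7.53 to 11.3, and the ranges overlapped only through cisplatin 2 at 11.2 and brivanib 3 at 11.3. Over both pairs of groups, the mean of cisplatin and combination was 0.38 ± 0.10 above the mean of vehicle and brivanib on the log2 scale (limma adjusted p = 0.0509), just short of passing. Without brivanib 3 it was 0.46 ± 0.09 (limma adjusted p = 0.0149), and without brivanib 5 it was 0.33 ± 0.11 (adjusted p = 0.109). The combination against brivanib gave 0.52 ± 0.15 (adjusted p = 0.0725), 0.68 ± 0.13 (adjusted p = 0.0238) without brivanib 3 and 0.41 ± 0.16 (adjusted p = 0.207) without brivanib 5. Lrrc8a thus passed or missed according to which brivanib library was left out.

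Lrrc8b (chromosome 5, 105415775 to 105490074), a partner subunit, was at 9.68, 8.82 and 10.1 FPKM in vehicle and 11.6, 11.8 and 12.7 FPKM in cisplatin. It was at 7.18, 9.68 and 8.37 FPKM in brivanib and 10.1, 11.2 and 10.4 FPKM in the combination. Cisplatin stood above each other group without overlap, as for the 1.03% of genes given above, and brivanib had the lowest mean. In the comparison of libraries with and without cisplatin, Lrrc8b rose by 0.30 ± 0.08 (limma adjusted p = 0.0481) and Lrrc8d by 0.90 ± 0.23 (adjusted p = 0.0418). These were 2 of the 8 members, and 6.51% of all genes were called there, 4.96% higher. For Lrrc8d the value joins unlike parts, since it was 1.98 ± 0.33 for cisplatin against vehicle and -0.18 ± 0.33 for the combination against brivanib (adjusted p = 0.799). The Lrrc8b call was lost in 20 of 26 alternatives, among them the omission of each library other than brivanib 3; the Lrrc8d call was lost in 18 of 26, and was kept on omission of vehicle 5, cisplatin 3 or brivanib 5. With the adipocyte score as a covariate neither passed. The values were then 0.265 ± 0.087 for Lrrc8b (limma adjusted p = 0.118) and 1.014 ± 0.246 for Lrrc8d (adjusted p = 0.052).

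Lrrc8c (chromosome 5, 105519388 to 105613018) and Lrrc8e (chromosome 8, 4226827 to 4237470), partners that admit cGAMP, passed no test. Lrrc8c was at 12.3 ± 0.568 FPKM in vehicle, 14.0 ± 1.32 in cisplatin, 12.4 ± 0.412 in brivanib and 11.6 ± 1.27 in the combination (SD, n = 3). Neighbouring groups in that order of levels overlapped, and the largest of its pairwise differences was that of the combination against cisplatin (-0.25 ± 0.11, limma adjusted p = 0.725). Lrrc8e, the lowest of the 5 subunits, was at 3.81 ± 0.186, 3.91 ± 1.002, 3.05 ± 0.516 and 3.73 ± 1.51 FPKM in the same groups. Combination libraries alone spanned 2.30 to 5.30 FPKM for Lrrc8e, the full range of the gene.

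Taken as a family, the summed FPKM of the 5 subunits was 37.9 to 44.0 in vehicle, 56.6 to 63.9 in cisplatin, 38.8 to 42.8 in brivanib and 42.8 to 49.9 in the combination. Lrrc8d gave 7.80%, 6.73% and 15.6% of that sum in vehicle, and 32.2%, 36.7% and 21.6% in cisplatin. In brivanib its share was 23.0%, 12.0% and 26.7%, and in the combination 17.7%, 12.2% and 16.7%. The shares of Lrrc8d in brivanib 2 and 5 lay within the cisplatin range. Cisplatin libraries thus had a different mix of subunit FPKM from vehicle, with Lrrc8c at 22.0% to 23.5% there and at 28.9% to 32.2% in vehicle. The Lrrc8c share was 29.4% to 30.6% in brivanib and 24.2% to 26.1% in the combination, the latter also below vehicle. In cisplatin the lower Lrrc8c share comes with a larger sum, since the mean of Lrrc8c was 14.0 FPKM in cisplatin and 12.3 in vehicle. Shares of Lrrc8d include the short models without the full coding sequence, such as 6.67 of its 6.86 FPKM in vehicle 5. These shares are of transcript levels per length, not of protein.

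**Figure D4:**
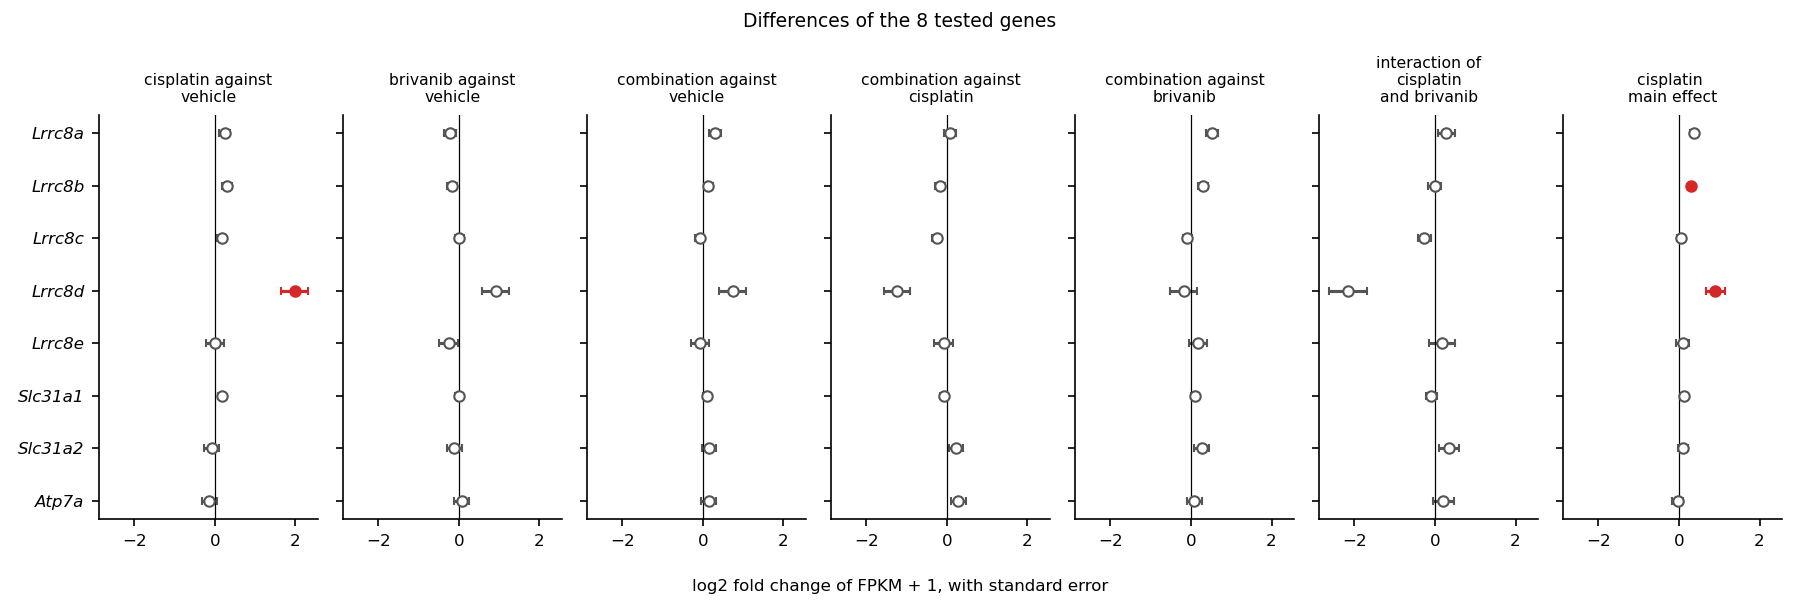
Log2 fold change of FPKM + 1 with its standard error for the 8 tested genes (rows) in the 7 comparisons (panels); filled red points had an adjusted p under 0.05 in limma. Filled points are Lrrc8d at 1.98 in cisplatin against vehicle, and Lrrc8d at 0.90 and Lrrc8b at 0.30 in the cisplatin main effect.

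None of the copper transporters passed the test in any of the 7 comparisons. Slc31a1, the copper importer (chromosome 4, 62360727 to 62391769), was at 17.0, 15.8 and 18.3 FPKM in vehicle and 18.6, 18.5 and 21.1 FPKM in cisplatin. It was at 15.8, 17.3 and 18.5 FPKM in brivanib and 18.7, 18.5 and 17.8 FPKM in the combination. The cisplatin libraries were all above the vehicle libraries by a narrow gap (0.18 ± 0.10 on the log2 scale, limma adjusted p = 0.442). Lrrc8a, Lrrc8b and Lrrc8d also had cisplatin libraries wholly above vehicle, against the 17% of all tested genes given above.

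Slc31a2 (chromosome 4, 62262562 to 62298411) lies before Slc31a1 on the same chromosome. It was at 7.84 ± 0.190 FPKM in vehicle, 7.44 ± 1.40 in cisplatin, 7.21 ± 0.602 in brivanib and 9.07 ± 2.76 in the combination (SD, n = 3). The last mean rested on combination 3 at 12.2 FPKM, against 7.29 and 7.67 in combination 2 and 4. The 3 brivanib libraries lay under the 3 vehicle libraries, as 6.9% of genes did, but the fold change was -0.11 ± 0.18 (limma adjusted p = 0.872). No member was called in brivanib against vehicle, where 1.81% of genes were.

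Atp7a (chromosome X, 106027276 to 106124926), the copper pump found in most tissues, was at 5.19 ± 0.685 FPKM in vehicle, 4.62 ± 0.265 in cisplatin, 5.63 ± 1.59 in brivanib and 5.93 ± 1.25 in the combination. All pairs of groups overlapped. Its fold change was -0.14 ± 0.19 for cisplatin and 0.15 ± 0.19 for the combination, each against vehicle (limma adjusted p = 0.788 and 0.711). In the combination against vehicle no member was called, with 2.34% of genes called; in the combination against brivanib none was either, with 3.87%. Without overlap in these comparisons were Lrrc8a above vehicle (17.2% of genes) and Lrrc8a and Lrrc8b above brivanib (14.1%), while Lrrc8b, like Lrrc8d, lay below cisplatin in the combination.

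Unlike Lrrc8d, the other LRRC8 genes rested on a single main transcript. It held 11.2 of 11.3 FPKM for Lrrc8a, all of Lrrc8b, 11.6 of 12.5 FPKM for Lrrc8c and 3.603 of 3.62 FPKM for Lrrc8e, averaged over libraries. For Slc31a1 the 3718-base transcript averaged 16.3 FPKM, and a 4154-base transcript averaged 1.74 ± 1.44 FPKM in vehicle, 2.35 ± 1.13 in cisplatin, 2.40 ± 2.09 in brivanib and 0.0803 ± 0.0757 in the combination. It held 3 to 16 fragments in the combination and 94 to 320 in cisplatin, but also only 3 in the lowest brivanib library. The 4154-base transcript ends at the same base as the 3718-base one and lies within the span of Cdc26 on the other strand. The division of fragments between them is an estimate of RSEM and is uncertain. This transcript was picked after its values were seen, and it is described without a test.

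Among other genes of copper handling, 19 of 20 were tested. In brivanib against vehicle 1 rose and none fell: Steap4, a reductase of iron and copper, was at 1.28 ± 0.555 FPKM in vehicle and 5.41 ± 1.12 in brivanib (1.499 ± 0.21, limma adjusted p = 0.00437). The Steap4 call was lost in 2 of 26 alternatives. Fibroblast markers moved the same way, at a summed FPKM of 719.7 to 1158 in vehicle and 1545 to 2068 in brivanib over all 8 listed genes. So did macrophage markers, at 225.6 to 404.0 and 637.4 to 850.5 over all 9. Adipocyte markers did as well, at 11.2 to 11.8 and 40.6 to 286.0 over all 10. The part of these cell types was not tested. Cp, which encodes the plasma copper carrier ceruloplasmin, rose in the combination against vehicle (1.25 ± 0.25, adjusted p = 0.028), against brivanib (1.501 ± 0.25, adjusted p = 0.0122) and with cisplatin over both pairs (1.22 ± 0.18, adjusted p = 0.00494). Cp was at 16.8, 22.4 and 18.2 FPKM in vehicle, 38.2, 25.6 and 52.5 in cisplatin, 13.4, 14.8 and 19.9 in brivanib and 34.6, 53.5 and 54.2 in the combination. The rise against vehicle was lost in 8 of 27 alternatives and the effect over both pairs in none of 26. The metallothionein genes Mt2 and Mt1, whose products bind copper and platinum, were the most abundant of the list and passed no test, with Mt2 at 114.8 to 1124 FPKM. The median fold change of the list was 0.04 with cisplatin against 0.07 over all genes, and 0.03 with brivanib against -0.01.

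Of 14 other carriers tied to cisplatin 8 were tested. Abcb1b, a P-glycoprotein pump of the mouse, rose in the combination against vehicle (0.67 ± 0.12, limma adjusted p = 0.0234), against brivanib (0.52 ± 0.12, adjusted p = 0.0424) and with cisplatin over both pairs (0.57 ± 0.09, adjusted p = 0.00634). It was at 7.45 to 9.69 FPKM in vehicle, 11.9 to 15.1 in cisplatin, 9.21 to 10.0 in brivanib and 13.2 to 15.7 in the combination, so libraries with cisplatin were all above those without, as for 3.45% of tested genes. Its difference for cisplatin alone was 0.61 ± 0.12 (adjusted p = 0.0765), and the calls against vehicle and brivanib were lost in 9 and 18 of 27 alternatives. Adipocyte markers were higher in the combination than in vehicle, as given above. Their score, the mean log2(FPKM + 1), was 0.429 to 0.475 in vehicle and 2.29 to 2.56 in the combination. With it as a covariate the rises against vehicle were 0.51 ± 0.18 for Abcb1b (limma adjusted p = 0.354) and 1.27 ± 0.38 for Cp (adjusted p = 0.3). As the score separates these groups, score and treatment cannot be told apart in that comparison. Both effects over both pairs still passed (adjusted p = 0.0199 and 0.013). Slc22a2 and Slc22a3, transporters of organic cations, and the kidney exporters Slc47a1 and Slc47a2 averaged at most 0.0654 FPKM. Abcc1, an export pump for glutathione conjugates, and Slc22a4, a carrier of ergothioneine, were the most abundant at means of 37.7 and 17.1 FPKM and passed no test.

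Of 20 genes of cell volume control 14 were tested and none passed in any comparison. The most abundant were Clns1a, once proposed as a chloride channel, at a mean of 101.5 FPKM and the water channel gene Aqp1 at 98.4 FPKM. Their fold changes with cisplatin were 0.20 ± 0.11 and 0.34 ± 0.15 (limma adjusted p = 0.456 and 0.332). The list's median was 0.06 with cisplatin, against 0.07 over all genes.

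The genes whose pattern over the 12 libraries was most like that of Lrrc8d were Nedd8 (Pearson r = 0.919), Ebna1bp2 (0.892) and Gstcd (0.847), on log2(FPKM + 1). Nedd8, which encodes a ubiquitin-like modifier, was at 57.7 to 84.6 FPKM in vehicle and 105.2 to 115.3 FPKM in cisplatin. Most like Lrrc8a were Ube2e2 (0.945), Vps18 (0.928) and Arfgef2 (0.927), and most like Lrrc8b were Trim36 (0.949), Zfp867 (0.935) and Pdha1 (0.934). For Lrrc8c they were Clstn2 (0.873), Ing3 (0.802) and Usp27x (0.799), and for Lrrc8e Snrk (0.912), Ncoa7 (0.901) and Vsig10 (0.897). For Slc31a1 they were Crybg3 (0.928), Chpf2 (0.920) and Pdzk1 (0.911), for Slc31a2 Zfp280b (0.894), Jaml (0.889) and Dock10 (0.883), and for Atp7a Errfi1 (0.914), Cstb (0.904) and Nedd4l (0.904). Within the members, Lrrc8a and Lrrc8b varied together (r = 0.818, and 0.652 after group means were removed), whereas Lrrc8a and Lrrc8d had r = 0.063 over libraries and -0.675 after group means were removed. These are descriptions over 12 libraries that share treatment groups and tissue admixture.

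**Figure D5:**
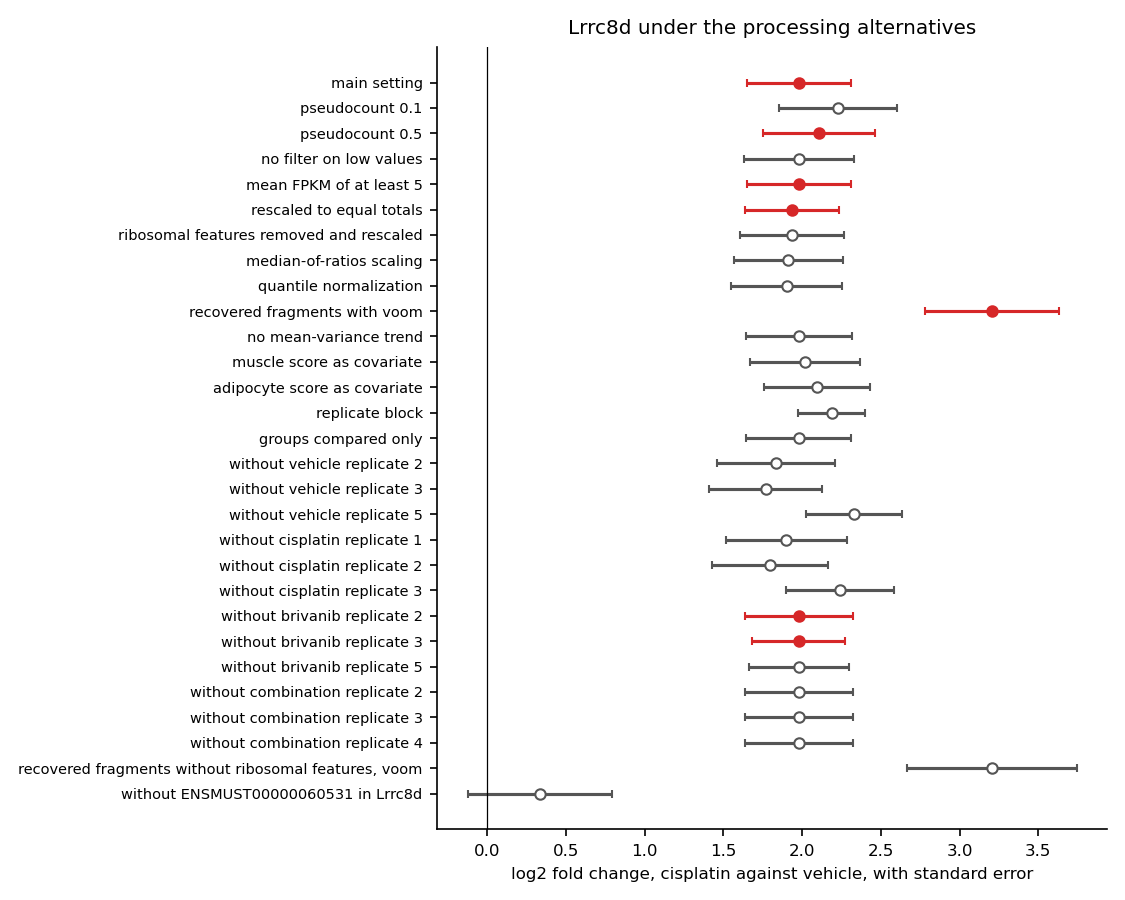
Log2 fold change of Lrrc8d in cisplatin against vehicle with its standard error under the reported setting and each alternative; filled red points had an adjusted p under 0.05. Values run from 1.77 to 3.21 in the settings that keep all transcripts, and the value is 0.33 when ENSMUST00000060531 is left out of the gene sum.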

How the data were processed

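RNA-seq of 12 mouse tumour libraries was used as deposited: FPKM per transcript, which the authors estimated with RSEM after Bowtie2 alignment, per the labels' design text. The submitters' processing notes give Bowtie2 2.2.5 and RSEM 1.2.12, and also list HISAT, Bowtie and the build mm9, while the design text names mm10. Transcript coordinates in the deposited table are those of GRCm38: GENCODE release M21 holds 134952 of the 135276 transcripts, 98.48% of them at identical coordinates. The deposited table also gives transcript lengths. Of its per-sample columns, 1 matched no sample and was not used.

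FPKM values were summed per gene. Genes with a mean of at least 1 FPKM (14246) were compared on log2(FPKM + 1), a scale that understates changes of low genes. The test was that of limma 3.58.1 (R 4.3.3), with group means over the 12 libraries, 8 residual degrees of freedom and a mean-variance trend. Tests were two-sided, adjusted by Benjamini-Hochberg over all genes, with a threshold of 0.05. The 7 contrasts were 5 pairs of groups, the interaction, and cisplatin plus combination against vehicle plus brivanib. Lrrc8d transcripts were tested among 28610 transcripts. Fragments were recovered from the steps of FPKM times length (100% of values up to 100 fragments were whole within 0.01) and given to voom. The limma fit on genes was tested on simulated log2(FPKM + 1) values, for cisplatin against vehicle only. Fragment recovery, voom, the transcript tests and the covariate fits were not tested in that way.

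The members, gene lists and tests were chosen with earlier results of these data known. Named were all 9 members, each called gene and the 2 most abundant of each related list, and the 3 genes most alike to each tested member (provisional names left out). Of the volume list, 19 of 20 symbols were in the table. The values of 1 gene of the carrier list are not reported here. Lrrc8dos, Gm32051, Cdc26, Gm28035 and the Slc31a1 transcripts were named after their values were seen. Precision is limited by 3 libraries per group and by fragment counts. Alternatives covered pseudocount, filter, scaling, covariates, replicate block and omitted libraries. Promoter windows were those of RefSeq on GRCm38.p6, and no protein sequence was used.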

Additional observations from a re-analysis of the deposited data

How the results depend on the processing

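The count of members called was the value most open to processing. In cisplatin against vehicle it was 1, and it was 0 in 11 of the 15 settings other than omitted libraries and 0 to 1 when a library was omitted. In the combination against cisplatin and in the interaction it was 0, and 1 (Lrrc8d) under voom. In the combination against brivanib it was 0, and 0 to 1 with omitted libraries. In the cisplatin main effect it was 2. It was 0 with no filter, with ribosomal features removed, under median-of-ratios scaling, quantile normalization, either voom fit or the adipocyte score, 1 with equal totals, no trend or the replicate block, and 3 with a mean FPKM of at least 5, where Lrrc8a also passed (limma adjusted p = 0.0439). With the muscle score it stayed at 2, Lrrc8a passing (adjusted p = 0.048) and Lrrc8d not (adjusted p = 0.0556); omitted libraries gave 0 to 2. In the 2 other comparisons it stayed at 0 in each setting run.

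Of 56 values of single members, 49 had the same call in all settings that kept every transcript. In these settings a sign changed in 23, none of which was called or exceeded 0.26 in size. With ENSMUST00000060531 left out, Lrrc8d changed sign in brivanib against vehicle (0.92 to -0.23) and in the combination against cisplatin (-1.24 to 0.49). It also did so in the combination against brivanib (-0.18 to 1.06) and in the interaction (-2.16 to 0.73). Scaling to equal totals put the median fold change of all genes at -0.34 in brivanib against vehicle, 0.31 in the combination against brivanib and in the interaction, and 0.15 in the cisplatin main effect, against -0.01, 0.04, -0.02 and 0.05 as deposited.

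Deviations from group means in 13 same-numbered pairs of libraries correlated at -0.157 to 0.213, with 2 above 0.1. Pairs with different numbers correlated at -0.232 to 0.231. With 3 libraries per group, these values cannot show whether replicate numbers pair the libraries. With the replicate block, Lrrc8d in cisplatin against vehicle was 2.19 ± 0.21 (limma adjusted p = 0.0601), against 1.98 ± 0.33 without it, and the count there was 0. Where a call was lost, the cause was not tested. Low fragment counts limit Atp7b and the full-coding Lrrc8d transcript in vehicle and combination libraries.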

Other observations

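Gm32051, a long noncoding RNA gene directly before Lrrc8b on the same strand (chromosome 5, 105409367 to 105415670), separated libraries with and without cisplatin. It was at 2.72, 2.97 and 5.16 FPKM in vehicle and 10.2, 8.18 and 11.3 FPKM in cisplatin. In brivanib it was at 1.31, 5.70 and 4.59 FPKM, and in the combination at 13.4, 16.9 and 9.56 FPKM. Every library with cisplatin was above every library without it, as for 3.45% of the tested genes. Lrrc8b, whose first base lies beyond the end of Gm32051, spanned only 7.18 to 12.7 FPKM. Gm32051 was looked at for its position, along with Lrrc8dos, Cdc26 and Gm28035, and was named after its values were seen. Cdc26, which overlaps Slc31a1, and Gm28035, which overlaps Lrrc8a, did not separate libraries with and without cisplatin. The values of Gm32051 are given without a test.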
